A study of Homo sapiens with 26 samples.

Results

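HIST cluster histone genes are the clustered genes that encode the core histones H2A, H2B, H3 and H4 and the linker histone H1. Members were chosen by symbol alone: every row of the deposited table named HIST1 to HIST4 followed by a histone type, without the 2 rows whose names end in PS and a number. This gave 60 of 33562 rows, of which 4 were H1, 15 H2A, 19 H2B, 11 H3 and 11 H4 genes. By cluster, 42 were HIST1 genes on chromosome 6, 15 HIST2 genes on chromosome 1, 2 HIST3 genes and 1 a HIST4 gene. RefSeq gives 56 of them as coding and 4, HIST2H2BA, HIST2H2BB, HIST2H2BC and HIST2H2BD, as pseudogenes.

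RNA was measured in 26 libraries of 9 lines of MDA-MB-231Luc, a human triple-negative breast cancer line, made to compare nuclear, cytoplasmic and untargeted Aurora-A kinase (AURKA), a mitotic kinase. The NLS-AURKA lines (clones c2 and c3) are labelled pLUTZ mRFP MUT1 NLS AURKA with guide sgAURKA1, where NLS is a nuclear localization signal. The NES-AURKA lines (clones c1 and c2; NES, nuclear export signal) and the WT-AURKA lines (clones c1 and c2, no signal) carry MUT2 cDNA and guide sgAURKA2. These 6 lines are labelled passages 32 to 35. The control lines NLS-Empty, NES-Empty and Empty carry the vector without AURKA and guide sgCon at passages 19 to 20. Each line was grown in doxycycline, which drives the cDNA from an rtTA-responsive promoter. Each line has 3 libraries except WT-AURKA c2 with 2, and nothing in the labels tells separate cultures from repeat libraries, so the spread between them may be technical. Guide, passage and clonal derivation cannot be told apart from AURKA cDNA, nor guide and cDNA label from the nuclear signal.

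Replication-dependent histone genes have no introns as a rule, are transcribed mainly in S phase, and end their messages in a conserved stem-loop bound by SLBP rather than in a poly(A) tail. Loss of SLBP-dependent processing, cell differentiation and exit from the cycle are known settings in which some of these genes also yield polyadenylated messages. A library made from poly(A)-selected RNA sees the polyadenylated share of such messages, and the kit named in the labels is an mRNA kit. Replacement histones such as H2AFZ and H3F3B come from unlinked genes with ordinary polyadenylated messages.

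Promoter sequence of members described here is shown because it carries the elements by which histone types are told apart at the DNA level. Each stretch is the 150 bases before the RefSeq start on GRCh38.p14, another build than the hg19 of the deposited table. Capitals mark 4 motifs searched on both strands, and no match of one overlaps another in the windows printed. The CCAAT box is CCAAT. The TATA box is TATAAA. The octamer is ATTTGCAT. The H1 box is AAACACA. HIST1H1C and HIST1H1E are linker histone genes, HIST1H2AC and HIST1H2BC a divergent H2A and H2B pair, HIST1H2BK an H2B gene and HIST1H4H an H4 gene.
HIST1H1C, chr6:26056471-26056620, minus strand: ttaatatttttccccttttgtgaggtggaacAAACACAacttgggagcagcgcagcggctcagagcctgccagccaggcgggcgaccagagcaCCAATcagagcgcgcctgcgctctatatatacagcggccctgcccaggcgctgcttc
HIST1H1E, chr6:26156179-26156328, plus strand: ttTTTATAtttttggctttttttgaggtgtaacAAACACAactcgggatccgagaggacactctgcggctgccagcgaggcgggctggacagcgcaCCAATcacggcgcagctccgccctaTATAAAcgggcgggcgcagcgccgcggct
HIST1H2AC, chr6:26124022-26124171, plus strand: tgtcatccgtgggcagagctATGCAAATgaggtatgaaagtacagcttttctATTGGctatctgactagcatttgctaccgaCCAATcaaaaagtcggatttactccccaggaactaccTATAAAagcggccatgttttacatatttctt
HIST1H2BC, chr6:26123927-26124076, minus strand: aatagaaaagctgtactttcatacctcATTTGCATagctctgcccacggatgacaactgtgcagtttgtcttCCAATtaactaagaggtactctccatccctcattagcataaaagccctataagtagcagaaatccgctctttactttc
HIST1H2BK, chr6:27146859-27147008, minus strand: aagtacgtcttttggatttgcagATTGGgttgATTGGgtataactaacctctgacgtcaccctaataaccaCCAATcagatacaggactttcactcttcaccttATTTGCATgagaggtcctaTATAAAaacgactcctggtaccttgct
HIST1H4H, chr6:26285535-26285684, minus strand: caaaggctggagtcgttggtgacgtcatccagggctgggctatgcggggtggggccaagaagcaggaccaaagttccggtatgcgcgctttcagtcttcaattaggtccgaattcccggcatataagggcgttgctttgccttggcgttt

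A window was matched for 52 of the 60 members. CCAAT was found in 44 of 52, all 14 H2A, 15 H2B, 10 H3 and 4 H1 windows among them but 1 of 9 H4 windows, against 23.5% of 35116 RefSeq promoters of the same length. The octamer was found in 12 of 15 H2B and 4 of 14 H2A windows and in none of the H1, H3 or H4 windows, against 0.988% of promoters. TATAAA was found in 31 of 52 windows, against 6.71%, and the H1 box in 3 of the 4 H1 windows and no window of another type, against 2.71%. HIST1H2BC and HIST1H2AC start 246 bases apart on opposite strands, 1 of 9 such H2A and H2B pairs among the members, and the octamer printed for each is the same 8 bases read on opposite strands.

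The 3′ ends are shown because the stem-loop is what sets these messages apart from polyadenylated ones. The stem-loop, in capitals with 5 bases on each side, is copied from GENCODE v29 transcripts on GRCh38.
HIST1H2AC: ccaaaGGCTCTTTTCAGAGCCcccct
HIST1H2BC: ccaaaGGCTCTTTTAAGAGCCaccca
HIST1H2BD: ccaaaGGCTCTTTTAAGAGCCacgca
HIST2H2AA3: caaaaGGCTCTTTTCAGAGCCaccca
HIST1H4H: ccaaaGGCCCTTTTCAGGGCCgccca
HIST2H4B: ccaaaGGCCCTTTTTAGGGCCgacca
Such a stem-loop was found in 32 of the 60 members and in 0.0459% of 19598 other protein-coding genes. Transcript models of 20 members, HIST1H1C and HIST1H2BK among them, hold the coding sequence alone, so their 3′ ends cannot be read from the annotation. For HIST1H2AC the longest coding model runs 1114 bases past the stem-loop, for HIST1H4H coding models end 18 or 630 bases past it and another model 1655 bases past it, and for HIST2H2AA3 the model ends 35 bases past it. A comparison of ends between members that differed among lines and those that did not is void, because a stem-loop to measure the end from was found in 7 of the 10 members raised in both NLS-AURKA clones and in 7 of the 18 other tested members.

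The libraries held an estimated 12200000 to 20300000 reads, so that 1 read of a 500-base message was worth 0.0985 to 0.164 RPKM. In each line but WT-AURKA c2, 1 library carries a title letter from A to H and the remaining ones letters from I to Z; what the letters mean is not stated. In A to H libraries (8) the nuclear noncoding RNA MALAT1 lay between 175 and 561 RPKM, and in I to Z libraries (18) between 6.10 and 33.5 RPKM. The ribosomal RNA row took 10.9% to 15.9% of summed RPKM in A to H and 0.635% to 10.1% in I to Z libraries. AURKA itself lay between 38.4 and 105 RPKM in NLS-AURKA, 15.5 and 37.0 RPKM in NES-AURKA, 12.7 and 84.1 RPKM in WT-AURKA and 34.0 and 69.0 RPKM in control libraries. Endogenous and cDNA reads of AURKA cannot be told apart. WT-AURKA library D had 84.1 RPKM of AURKA against 12.7 to 14.3 RPKM in the other WT-AURKA libraries, and NES-AURKA c2 library A 36.7 RPKM against 15.5 and 21.5 RPKM in the other libraries of its line. Counts of members higher in NLS-AURKA than in NES-AURKA and control lines are therefore also given without these 2 libraries. Library X of NLS-AURKA c2 had the highest summed RPKM. The mesenchymal marker VIM, high in MDA-MB-231, averaged 864 RPKM in NLS-AURKA, 515 RPKM in NES-AURKA, 382 RPKM in WT-AURKA and 318 RPKM in control lines. Of 5 mesenchymal markers 3 were higher and 0 lower in NLS-AURKA than in control lines (limma, adjusted p under 0.05), their sum lying between 738 and 1148 RPKM in NLS-AURKA and between 286 and 434 RPKM in control libraries. Of 7 tested epithelial markers 0 were higher and 5 lower, EPCAM averaging 2.95 RPKM in NLS-AURKA and 12.3 RPKM in control lines, with sums of 200.4 to 489.8 RPKM in NLS-AURKA and 331 to 490.1 RPKM in control libraries. The leukocyte markers summed to 52.8 to 71.1 RPKM in NLS-AURKA and 27.7 to 50.7 RPKM in control libraries. Nearly all of that was CD68, also a lysosomal protein of other cells, which was higher at 61.2 RPKM in NLS-AURKA and 39.1 RPKM in control lines, while CD3E was listed at 0 and PTPRC lay under 0.1 RPKM in both. The endothelial markers summed to 2.52 to 4.55 RPKM in NLS-AURKA and 0.509 to 0.931 RPKM in control libraries, through KDR, which was higher at 3.32 RPKM in NLS-AURKA and 0.547 RPKM in control lines; CDH5 and VWF averaged under 0.1 RPKM in both. The part of these markers in the members' differences was not tested.

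Most members were scarce. At 1 RPKM in at least 2 libraries, 28 members entered the tests: 2 H1, 9 H2A, 8 H2B, 3 H3 and 6 H4 genes. Of the other 32, 26 stayed under 1 RPKM in every library, among them the testis genes HIST1H1T, HIST1H2AA, HIST1H2BA and HIST3H3. HIST1H2AK was listed at 0 or under 1e-04 RPKM in all 26 libraries. HIST1H3B and HIST1H3H passed through NLS-AURKA libraries alone and so had to be high there, and the other 26 passed without them.

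The summed level of the members was several times higher in both NLS-AURKA lines than in any other line. It was 188, 539 and 971 RPKM in the libraries of NLS-AURKA c2 and 203, 484 and 658 RPKM in those of NLS-AURKA c3. It lay between 50.9 and 91.5 RPKM in the 6 NES-AURKA libraries (median 66.5), between 86.1 and 117 RPKM in the 5 WT-AURKA libraries (median 100.004) and between 77.7 and 94.0 RPKM in the 9 control libraries (median 81.5). All 6 NLS-AURKA libraries stood above all 20 others, and within NLS-AURKA the A to H library of each line was the lowest. In bulk RNA, more cells with these messages and more of them per cell cannot be told apart. Over line means the sum was 507 ± 82.9 RPKM in NLS-AURKA, 67.3 ± 10.6 RPKM in NES-AURKA and 98.6 ± 13.4 RPKM in WT-AURKA (SD, n = 2 lines each), and 82.0 ± 1.98 RPKM in control lines (SD, n = 3).

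The types took unequal part in this. Summed H1 was 125 ± 8.97 RPKM in NLS-AURKA and 15.1 ± 0.997 RPKM in control lines. Summed H2A was 149 ± 14.7 RPKM in NLS-AURKA and 25.6 ± 0.494 RPKM in control lines, and summed H2B 206 ± 53.8 RPKM in NLS-AURKA and 28.9 ± 0.684 RPKM in control lines. These 3 types showed no overlap between NLS-AURKA and other libraries. Summed H3 was 6.09 ± 1.96 RPKM in NLS-AURKA and 3.16 ± 0.349 RPKM in control lines, and summed H4 21.2 ± 3.50 RPKM in NLS-AURKA and 9.17 ± 0.321 RPKM in control lines (SD, n = 2 and 3 lines). For H3 and H4 the A to H libraries of NLS-AURKA lay within the range of other lines. H4 made up 4.65 ± 0.215% of the members' RPKM in NLS-AURKA, 13.6 ± 0.967% in NES-AURKA and 11.2 ± 0.533% in control lines, and the 3 members highest on average took 62.9 ± 1.23% in NLS-AURKA, 37.2 ± 1.63% in NES-AURKA and 41.0 ± 1.45% in control lines.

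**Figure D1:**
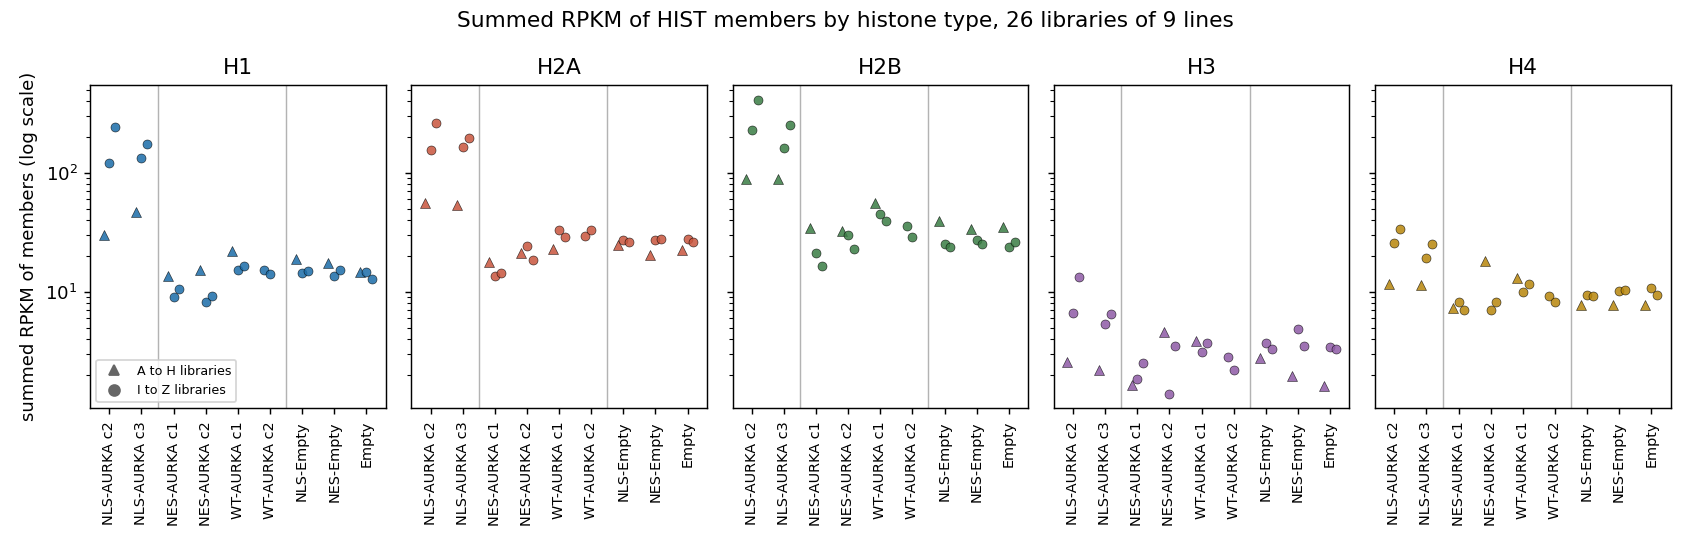
Summed RPKM of the members of each histone type (log scale) in every library, by line; triangles are A to H and circles I to Z libraries. The H1, H2A and H2B sums of all 6 NLS-AURKA libraries lie above those of the 20 other libraries, while the H3 and H4 sums overlap.

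HIST1H1C, which encodes linker histone H1.2, had the largest difference of any tested member from NES-AURKA and WT-AURKA lines, and after HIST1H2BK the largest from control lines. It had 26.2, 118 and 239.9 RPKM in NLS-AURKA c2 and 42.1, 131 and 174 RPKM in NLS-AURKA c3. It lay between 5.49 and 7.82 RPKM in NES-AURKA libraries (median 6.94), between 11.995 and 14.1 RPKM in WT-AURKA libraries (median 12.9) and between 9.27 and 13.1 RPKM in control libraries (median 10.5). The lowest NLS-AURKA library, from the A to H set, was above the highest of any other line, and the NES-AURKA libraries were the lowest of all. The log2 difference of line values was 3.62 ± 0.09 between NLS-AURKA and NES-AURKA (SE, limma, adjusted p = 1.9e-07), 2.78 ± 0.09 between NLS-AURKA and WT-AURKA (adjusted p = 6.7e-07) and 3.03 ± 0.08 between NLS-AURKA and control lines (adjusted p = 7.1e-08). HIST1H1E, which encodes H1.4, did not pass the test; its printed promoter shares the CCAAT box and the H1 box with that of HIST1H1C and also holds TATAAA, which that of HIST1H1C does not. It had 1.58 to 4.73 RPKM in NLS-AURKA libraries (median 3.58) and 2.21 to 6.21 RPKM in control libraries (median 4.71), with a log2 difference of -0.23 ± 0.18 (limma, adjusted p = 0.34). HIST1H1A and HIST1H1T stayed under 0.3 RPKM in these libraries.

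Among H2A genes, HIST1H2AC and the copies HIST2H2AA3 and HIST2H2AA4 stood out. HIST1H2AC had 26.1 to 93.8 RPKM in NLS-AURKA libraries (median 79.5), 3.29 to 12.9 RPKM in NES-AURKA libraries (median 5.15), 6.91 to 15.5 RPKM in WT-AURKA libraries (median 11.95) and 10.0 to 11.6 RPKM in control libraries (median 10.7). The NLS-AURKA libraries did not overlap the others, and the log2 difference was 3.13 ± 0.16 against NES-AURKA (limma, adjusted p = 7e-06) and 2.31 ± 0.15 against control lines (adjusted p = 9.5e-06). HIST2H2AA3 and HIST2H2AA4 are near-identical copies whose reads the deposited values divided unsteadily, HIST2H2AA3 taking between 0.446% and 84.6% of their sum in single libraries, so their sum is the firmer value. It was 24.7 to 176 RPKM in NLS-AURKA libraries (median 73.3), 6.31 to 11.6 RPKM in NES-AURKA libraries (median 7.87), 11.5 to 15.1 RPKM in WT-AURKA libraries (median 14.3) and 8.34 to 12.7 RPKM in control libraries (median 10.997), with no overlap. HIST1H2AG rose less, with a log2 difference of 0.63 ± 0.09 against NES-AURKA (limma, adjusted p = 0.0011). HIST2H2AC, which shares a divergent promoter with HIST2H2BE, fell by 0.33 against control lines on the log2 scale (limma, adjusted p = 0.048) at levels of 0 to 1.07 RPKM in NLS-AURKA and 0 to 1.69 RPKM in control libraries. That call was lost in 11 of 18 alternatives, upper-quartile scaling, fits of 1 letter set and leaving out any 1 control or NLS-AURKA line among them, with differences of -0.43 to -0.13.

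H2B gave the largest number of changed genes. HIST1H2BK had 47.1, 152 and 329 RPKM in NLS-AURKA c2 and 47.2, 107 and 187 RPKM in NLS-AURKA c3. It lay between 5.66 and 17.5 RPKM in NES-AURKA libraries (median 11.02), 13.3 and 31.7 RPKM in WT-AURKA libraries (median 23.7) and 10.2 and 14.5 RPKM in control libraries (median 12.1). Every NLS-AURKA library was above every other, and WT-AURKA c1 was the next highest line. The log2 difference was 3.24 ± 0.24 against NES-AURKA (limma, adjusted p = 5.9e-05), 2.39 ± 0.24 against WT-AURKA (adjusted p = 0.00019) and 3.16 ± 0.22 against control lines (adjusted p = 1.7e-05). HIST1H2BD had 26.6 to 46.5 RPKM in NLS-AURKA libraries (median 37.3) and 5.55 to 15.3 RPKM in control libraries (median 6.77), and HIST1H2BC 3.58 to 14.9 RPKM in NLS-AURKA libraries (median 8.72) and 1.18 to 2.57 RPKM in control libraries (median 1.82), both without overlap. HIST1H2BC and its divergent neighbour HIST1H2AC were thus both raised. HIST1H2BJ had 1.01 to 8.96 RPKM in NLS-AURKA libraries (median 5.43) and 0.229 to 0.987 RPKM in control libraries (median 0.596), but its NLS-AURKA A to H libraries fell within the range of WT-AURKA. HIST1H2BJ and HIST1H2AG, another divergent pair, were both called higher against NES-AURKA, WT-AURKA and control lines. Other divergent pairs did not move together. HIST1H2BO was called higher in these 3 comparisons and its neighbour HIST1H2AM in none, and HIST2H2BE in all 3 and its neighbour HIST2H2AC in none. HIST2H2BE had 1.32 to 3.24 RPKM in NLS-AURKA libraries (median 2.36) and 0.474 to 1.80 RPKM in control libraries (median 0.887), overlapping, with a log2 difference of 0.73 ± 0.11 (limma, adjusted p = 0.00098). HIST2H2BF, with 1.03 to 2.07 RPKM in NLS-AURKA libraries and 0.806 to 1.82 RPKM in control libraries, did not pass the test (log2 difference 0.27 ± 0.11, limma, adjusted p = 0.078).

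H3 genes were near the floor of 1 RPKM. HIST1H3H had 0.476 to 2.91 RPKM in NLS-AURKA libraries (median 1.67) and 0.243 to 0.858 RPKM in control libraries (median 0.638). As 1 of the 2 members that passed the filter through NLS-AURKA libraries, it is described without a test. HIST1H3C had 0.129 to 4.78 RPKM in NLS-AURKA libraries (median 1.52) and 0.120 to 1.55 RPKM in control libraries (median 0.649), with a log2 difference of 0.56 ± 0.19 (adjusted p = 0.044). Both overlap between groups. The HIST1H3C call was lost in 10 alternative fits, at differences of 0.30 to 0.88, and kept in 8, and its sign reversed in 1.

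Among H4 genes, HIST1H4H had 2.72 to 11.8 RPKM in NLS-AURKA libraries (median 7.42), 0.455 to 2.33 RPKM in NES-AURKA libraries (median 0.793), 0.897 to 1.43 RPKM in WT-AURKA libraries (median 1.16) and 0.796 to 1.57 RPKM in control libraries (median 1.30), with no overlap. Its log2 difference was 1.93 ± 0.16 against NES-AURKA (limma, adjusted p = 0.00011) and 1.71 ± 0.15 against control lines (adjusted p = 5.2e-05). The copies HIST2H4A and HIST2H4B summed to 4.44 to 9.27 RPKM in NLS-AURKA libraries (median 6.92) and 1.38 to 2.86 RPKM in control libraries (median 1.79), above all other lines as well. HIST1H4C, with 2.43 to 5.61 RPKM in NLS-AURKA libraries (median 2.64) and 1.75 to 3.98 RPKM in control libraries (median 2.31), gave a log2 difference of 0.23 ± 0.20 (limma, adjusted p = 0.38). Reads shared among the nearly identical coding sequences of H4 genes could have been divided in the same unsteady way.

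**Figure D2:**
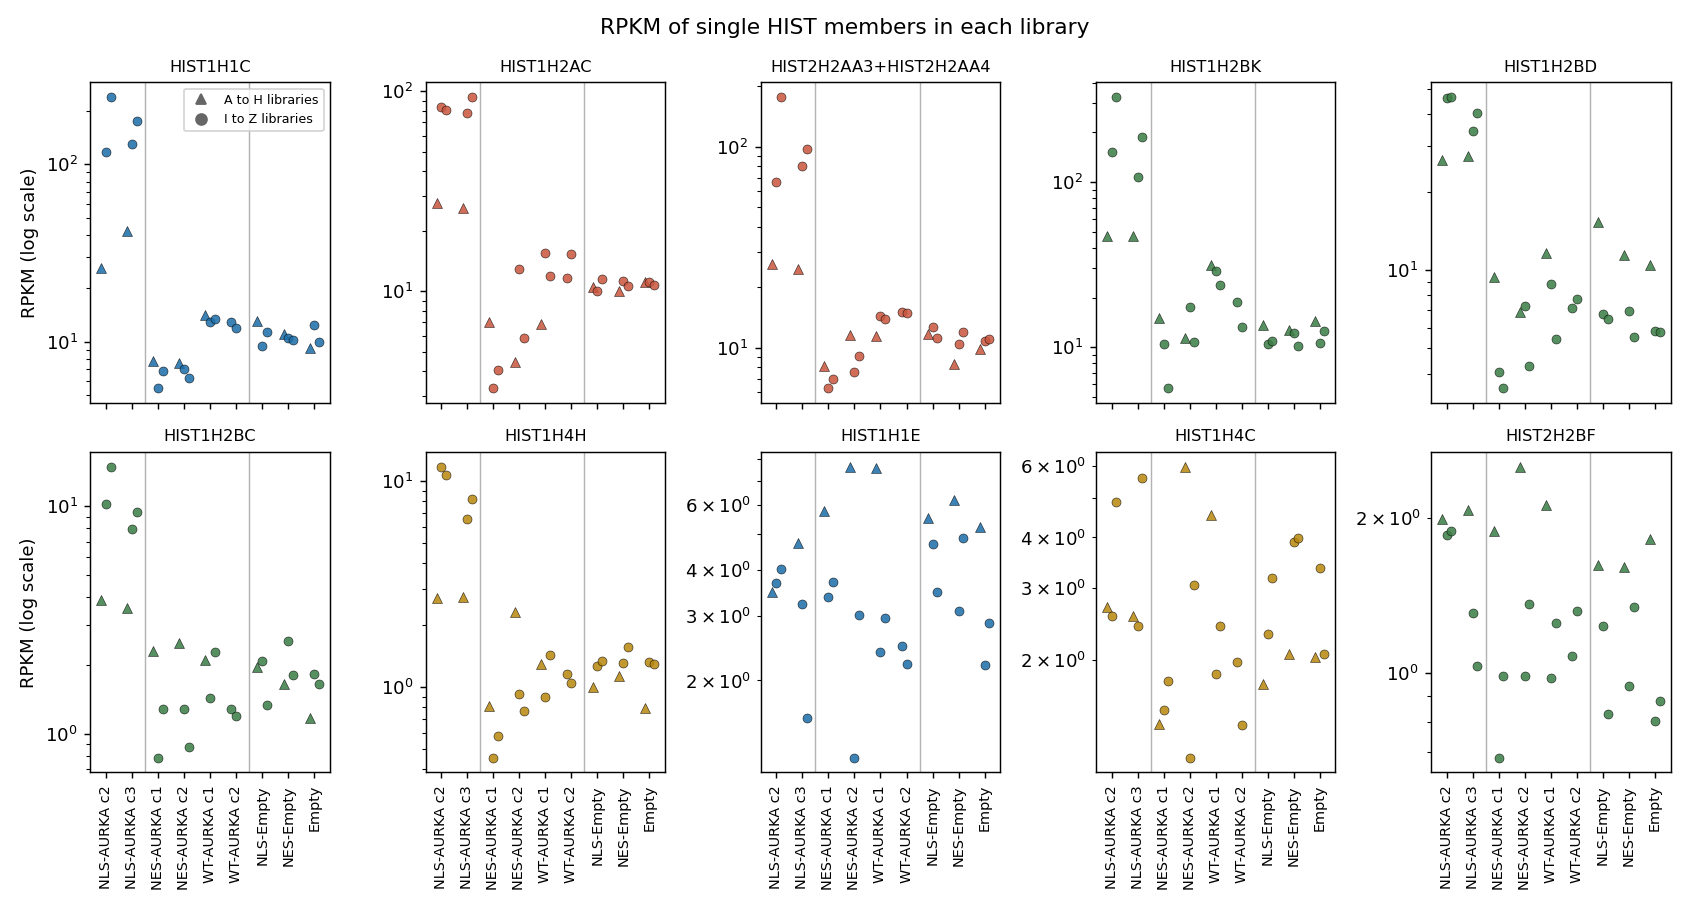
RPKM (log scale) of single members and 1 copy pair in each library, by line; triangles are A to H and circles I to Z libraries, and grey lines part NLS-AURKA, the other AURKA lines and control lines. HIST1H1C, HIST1H2AC, HIST1H2BK, HIST1H2BD, HIST1H2BC, HIST1H4H and the HIST2H2AA pair are highest in all 6 NLS-AURKA libraries, and HIST1H1E, HIST1H4C and HIST2H2BF overlap between lines.

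Counted over the 28 tested members, 16 were higher and 0 lower in NLS-AURKA than in NES-AURKA lines, where 33.2% of all 12589 genes tested were called in either direction and 19.1% were higher. Against WT-AURKA 15 were higher and 0 lower, where 36.1% of genes were called and 18.7% were higher. WT-AURKA c2 has I to Z libraries only, so this comparison also mixes in the letter set. Against control lines 16 were higher and 1 lower, where 41.9% of genes were called, 21.4% higher and 20.5% lower. No member was lower than NES-AURKA or WT-AURKA at adjusted p under 0.05, and at an unadjusted p under 0.05 none of the 28 was lower in either comparison. The median log2 difference of the members was 0.62, 0.48 and 0.70 against NES-AURKA, WT-AURKA and control lines, and that of all genes 0.05, 0.01 and -0.00. These 3 comparisons share the NLS-AURKA lines and are not independent. Without HIST1H3B and HIST1H3H, which entered through NLS-AURKA libraries, 14, 14 and 15 of 26 members were higher than NES-AURKA, WT-AURKA and control lines. Of these 26, 14 were higher in all 3 comparisons, 1 H1, 4 H2A, 6 H2B and 3 H4 genes and no H3 gene, and 11 were higher in none. Both NLS-AURKA clones were higher than NLS-Empty by at least 1 on the log2 scale for 10 members, where 2.72% of genes were higher and 5.14% called in either direction: HIST1H1C, HIST1H2AC, HIST1H2BC, HIST1H2BD, HIST1H2BJ, HIST1H2BK, HIST1H4H, HIST2H2AA3, HIST2H2AA4 and HIST2H4B. The calls against NLS-Empty come from the fit to 26 libraries, which treats libraries of a line as separate. Libraries of a line may be technical repeats, so these calls do not weigh differences between lines. Without libraries D and A, 19 members were higher than NES-AURKA and 17 than control lines. Without library X, 15 were higher than NES-AURKA and 15 than control lines.

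**Figure D3:**
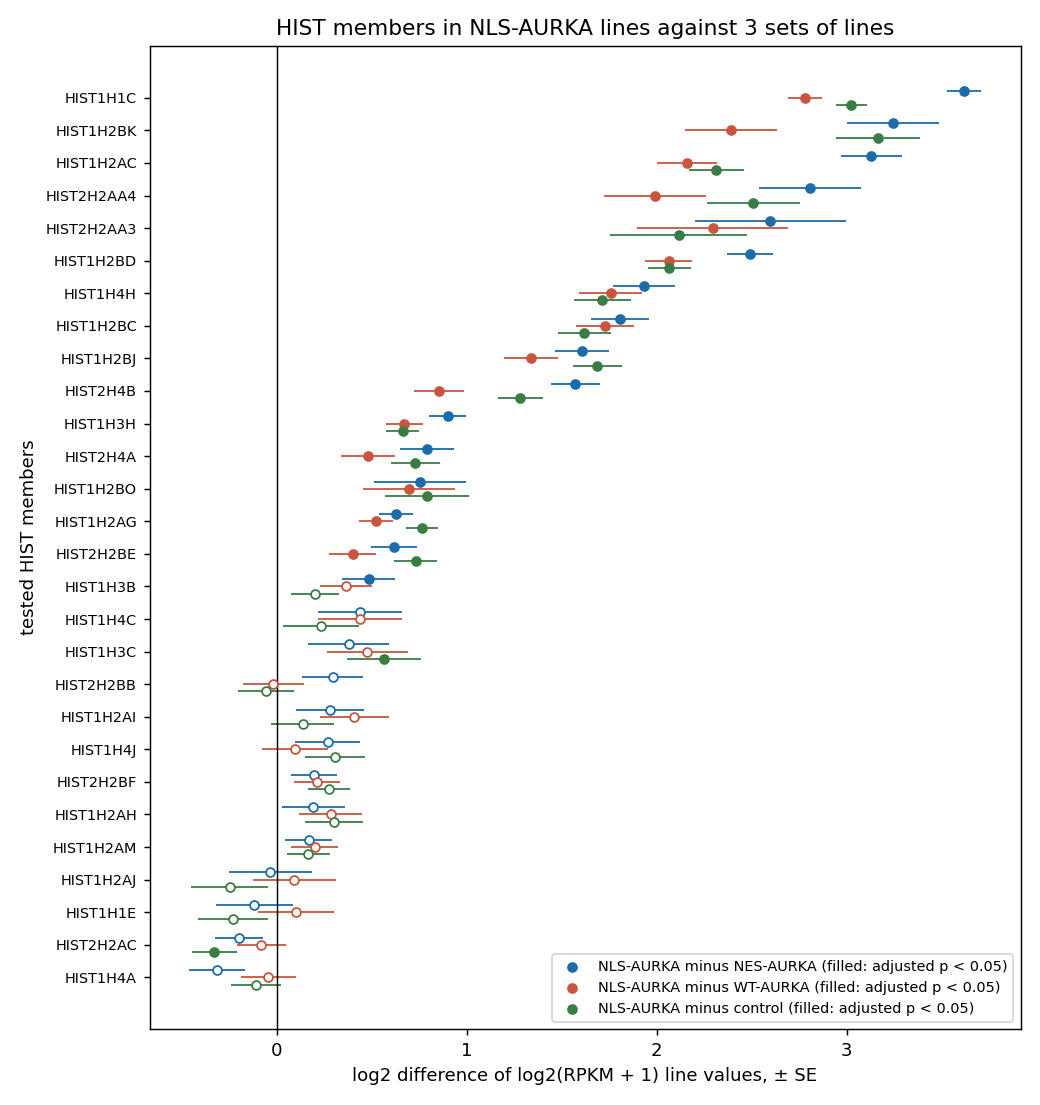
Log2 difference (± SE) of line values of log2(RPKM + 1) for the 28 tested members between NLS-AURKA and NES-AURKA (blue), WT-AURKA (red) and control lines (green); filled points have an adjusted p under 0.05. HIST1H1C lies highest against NES-AURKA and WT-AURKA at 3.62 and 2.78 and HIST1H2BK against control lines at 3.16, HIST1H3B and HIST1H3H passed the filter on low values through NLS-AURKA libraries, and the members at the bottom lie near 0 in these comparisons.

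In the 3 NLS-AURKA comparisons the median log2 difference of each list of other histone and S-phase genes was at most 0.28. SLBP, the stem-loop binding protein, had 29.5 to 49.7 RPKM in NLS-AURKA libraries and 33.3 to 57.2 RPKM in control libraries, a log2 difference of -0.20 (limma, adjusted p = 0.084). NPAT, the activator of clustered histone genes, averaged 7.47 ± 0.741 RPKM in NLS-AURKA lines (SD, n = 2) and 5.16 ± 0.393 RPKM in control lines (SD, n = 3), a log2 difference of 0.44 (limma, adjusted p = 0.046), and the difference from NES-AURKA was 0.33 (adjusted p = 0.17). The NPAT call against control lines was lost in 12 alternative fits, at differences of 0.23 to 0.55, and kept in 7. Against control lines, where 21.4% of all genes tested were higher and 20.5% lower, 2 of 15 tested genes of histone mRNA processing were higher and 2 lower (median log2 difference 0.05), 3 of 11 genes of histone transcription were higher and 1 lower (median 0.09), and of 11 genes of histone mRNA translation and decay 1 was higher and 3 lower (median -0.06). Of 20 histone chaperone genes 6 were higher and 0 lower than in control lines (median 0.11), and 7 were higher and 1 lower than in NES-AURKA (median 0.19) and likewise than in WT-AURKA (median 0.28). Of 25 S-phase genes 8 were higher and 2 lower than in control lines (median 0.10), 6 higher and 5 lower than in NES-AURKA (median 0.06), where 19.1% of genes were higher and 14.1% lower, and 9 higher and 2 lower than in WT-AURKA (median 0.08), where 18.7% were higher and 17.4% lower. Of 10 tested histone genes not named HIST, 4 were higher and 0 lower than in control lines. H2AFZ was higher by 0.88 and H2AFX by 0.60 (limma, adjusted p = 0.00039 and 0.0064). Of the same 10, 0 were higher and 3 lower than in NES-AURKA, and 1 higher and 3 lower than in WT-AURKA. The 5 members reported as polyadenylated, HIST1H1C, HIST1H2AC, HIST1H2BD, HIST1H2BK and HIST2H2BE, a list chosen with these results known, were higher in each of the 3 comparisons. The part of the other lists in the members' difference was not tested.

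In the lines without a nuclear signal few members were called. For NES-AURKA against WT-AURKA, however, 10.7% of the 28 were called, a larger share than of all genes. This share rests on 3 members, and 1 call was left without WT-AURKA c2 or without a filter. At an unadjusted p under 0.05 (limma), 7 members differed there, 0 of them higher. For this and the other unadjusted counts below, the share of all genes is not given, so they have no background. NES-AURKA was lower than WT-AURKA for 3 members, where 4.87% of genes were called and 3.3% were lower: HIST1H1C by a log2 difference of -0.84 ± 0.09, HIST1H2AC by -0.97 ± 0.16 and HIST2H4B by -0.72 ± 0.13 (limma, adjusted p = 0.0054, 0.017 and 0.021). Against control lines NES-AURKA was lower for 3 members, where 34% of genes were called and 19.2% were lower: HIST1H1C by -0.59 ± 0.08, HIST1H2AC by -0.82 ± 0.15 and HIST1H2BD by -0.42 ± 0.11 (adjusted p = 0.00095, 0.0033 and 0.018). WT-AURKA was higher than control lines for 5 members, where 37.2% of genes were called and 18.7% were higher, the largest difference being 0.78 ± 0.22 for HIST1H2BK (adjusted p = 0.023), and with 1 control or WT-AURKA line left out 0 to 2 calls were made. The shares of members called against control lines were thus below those of all genes. Line values are plain means over libraries, and WT-AURKA c2 has I to Z libraries only. Both of these comparisons with WT-AURKA lines thus also mix in the letter set. Neither both WT-AURKA clones against Empty nor both NES-AURKA clones against NES-Empty gave a member, where 3.1% and 1.99% of genes were called; at an unadjusted p under 0.05, with no threshold on size, 2 and 2 members differed in the 2 WT-AURKA clones and 3 and 1 in the 2 NES-AURKA clones. The clone comparisons with Empty and NES-Empty also come from the fit to 26 libraries, which treats libraries of a line as separate. Pooled, the 6 AURKA lines did not differ from control lines for any member by limma, where 19.2% of genes were called. In that pooled comparison 3 members had an unadjusted p under 0.05.

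Members differed between the letter sets as well, at shares below those of all genes. In the fit with a term per line, 5 members were higher and 10 lower in A to H than in I to Z libraries. This was 53.6% of the 28 tested, where 73.2% of all genes were called, 30% higher and 43.2% lower. That fit treats libraries of a line as separate; with 1 difference per line, 4 members were higher and 8 lower, where 26.6% of genes were higher and 39% lower. From the fit to libraries, HIST1H1E was higher by 0.72 ± 0.14 and HIST2H2BE by 0.47 ± 0.09 on the log2 scale (limma, adjusted p = 0.00013 and 4.4e-05), and HIST1H4J fell by 1.05 (adjusted p = 2.6e-06). Scaling to the upper quartile moved the median of all genes by 0.17 on the log2 scale in this comparison, and then 7 members were higher and 6 lower. Of the 25 S-phase genes 1 was higher and 23 lower in A to H libraries, and of 4 tested nuclear lncRNAs 4 were higher, MALAT1 by 4.09. What the sets differ in was not tested.

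The excess in NLS-AURKA depended on the set. For HIST1H1C the mean in NLS-AURKA was 3.25 times that of the other lines among A to H libraries and 16.5 times among I to Z libraries. For HIST1H2BK these ratios were 2.86 among A to H and 13.8 among I to Z libraries. For HIST1H2AC they were 3.23 among A to H and 8.06 among I to Z libraries, and for HIST1H2BD 2.50 and 6.83 in that order. The A to H minus I to Z difference of HIST1H1C was -2.64 and -1.82 in the NLS-AURKA lines and between -0.24 and 0.31 in the 6 other lines that have both sets. That of HIST1H2BK was -2.22 and -1.56 in the NLS-AURKA lines and between -0.26 and 0.89 in the others. By limma on 1 difference per line, NLS-AURKA lines differed from the others by -2.35 ± 0.23 for HIST1H1C (adjusted p = 0.014) and by -2.17 ± 0.28 for HIST1H2BK (adjusted p = 0.035), where 0.0715% of genes were called, 0.0238% lower, and no other member was called. At an unadjusted p under 0.05, 19 of the 28 members differed by limma, 0 of them higher. The share of all genes at that unadjusted threshold is not given, and the 0.0715% is no background for it. The median over members was -0.88, against 0.06 for all genes, and 2 members lay above 0. The 2 adjusted calls rest on few lines: 0 remained without NES-Empty, NLS-Empty, WT-AURKA c1 or NLS-AURKA c2, and 1 without NLS-AURKA c3.

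**Figure D4:**
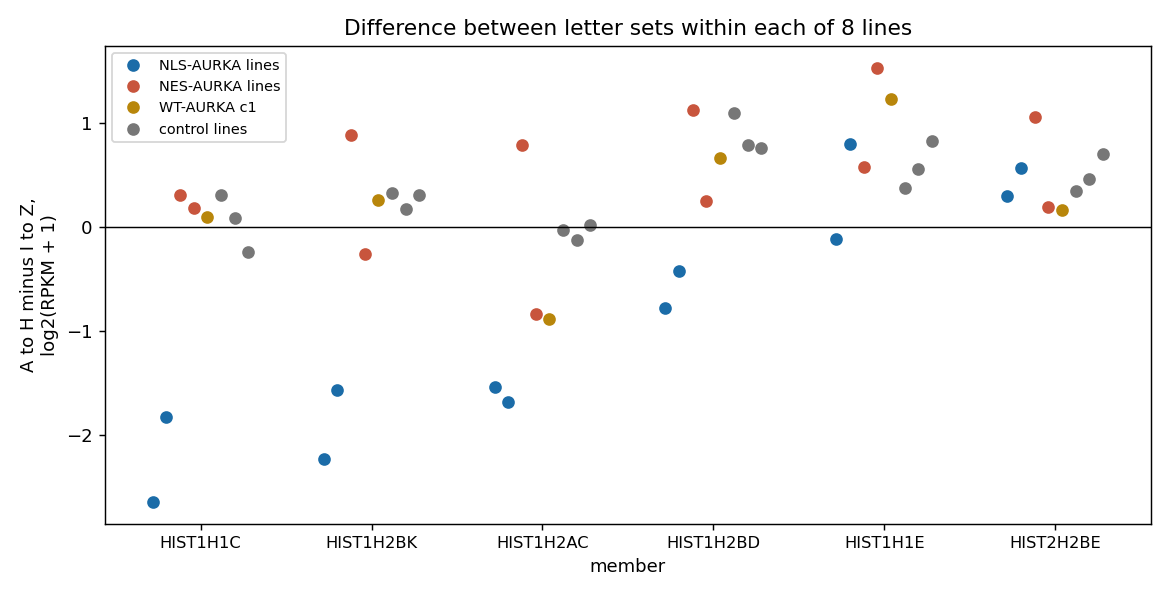
Difference between the A to H library and the mean of the I to Z libraries on log2(RPKM + 1), 1 point for each of 8 lines, for 6 members. In the NLS-AURKA lines HIST1H1C, HIST1H2BK, HIST1H2AC and HIST1H2BD are lower in A to H libraries, while HIST2H2BE is higher in all 8 lines.

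The 14 members higher in the 3 NLS-AURKA comparisons that passed the filter without NLS-AURKA libraries were chosen on line means over both letter sets. Their signs within a set are thus no separate test, least of all in I to Z, which holds most libraries. Within I to Z libraries all 14 had differences above 0 in each comparison. Within A to H libraries 10 of the 14 did, and HIST1H2AG, HIST1H2BJ, HIST1H2BO and HIST2H4A did not; HIST1H2BO lay below 0 in all 3, at -0.29, -0.42 and -0.24 against NES-AURKA, WT-AURKA and control lines (limma, adjusted p = 0.70, 0.66 and 0.69). Among A to H libraries, with 1 per line and 1 WT-AURKA line, 6, 1 and 11 members were higher in NLS-AURKA than in NES-AURKA, WT-AURKA and control lines, where 5.98%, 1.51% and 12.4% of genes were higher. Among I to Z libraries 20, 21 and 18 members were higher in the same comparisons, where 19.6%, 20.4% and 19.9% of genes were. HIST1H1C differed from control lines by 1.51 among A to H libraries (limma, adjusted p = 0.0084) and by 3.78 among I to Z libraries (adjusted p = 1.3e-07). HIST1H2BK differed by 1.72 among A to H (adjusted p = 0.0018) and by 3.88 among I to Z libraries (adjusted p = 3e-05), and HIST1H2AC by 1.27 (adjusted p = 0.0063) and 2.83 (adjusted p = 7.8e-05) in that order. HIST1H3C differed by -0.02 (adjusted p = 0.98) among A to H and by 0.85 (adjusted p = 0.004) among I to Z libraries. For AURKA against control lines the letter-set difference changed for 0 members by limma, where 0.183% of genes were called, and 0 members had an unadjusted p under 0.05.

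As a description over the 18 I to Z libraries, the 10 members raised in both NLS-AURKA clones had Spearman's rho between 0.35 and 0.93 in their 45 pairs (median 0.66), and the other 18 tested members between -0.61 and 0.76 in 153 pairs (median 0.27). Over the 14 I to Z libraries of other lines the medians were 0.28 for the 10 and 0.06 for the 18. These libraries share lines, scaling and depth, and the 10 were chosen for a difference among the same lines.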

How the data were processed

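Members, gene lists, motifs and several comparisons were chosen with earlier results of these data known. Per the labels' protocols, 500 ng of total RNA went into KAPA mRNA Hyper Prep libraries. The tools named are HISAT2, SAMtools and Partek, and the build is hg19, per the submitters' processing notes. No version, annotation, strand setting or rule for shared reads is stated there. The values the authors deposited are RPKM for 33562 symbols in 26 libraries. The table names no unit, and RPKM was read from steps in low values, which also gave the depth estimates of 12200000 to 20300000 reads. Values under 1e-04 were kept as deposited in the fits and left out of the depth estimates.

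Genes reaching 1 RPKM in at least 2 libraries (12589) were tested on log2(RPKM + 1), a scale that understates changes of low genes. limma 3.58.1 in R 4.3.3, with a mean-variance trend, was fitted to means of the 9 lines, in 2 arms and in 4 groups, or to 26 libraries with a coefficient per line and a letter-set term. P-values were adjusted by Benjamini-Hochberg over all genes tested and called under 0.05. Contrasts of each construct with control lines, the letter-set difference between NLS-AURKA and other lines, and fits without library X or without D and A were added after seeing the data. The code of the fits was run on simulated data with less spread between lines than here and with changes only in genes well above 1 RPKM. That run does not bear on calls of members near 1 RPKM. Members were named by level within type, by rank in each comparison, and as 5 genes reported as polyadenylated; others were named after their values were seen. Promoters are from RefSeq (GRCh38.p14) and transcripts from GENCODE v29. Alternatives were pseudocount, filter, scaling, empirical Bayes step, letter set and leaving out each line or library.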

Additional observations from a re-analysis of the deposited data

Results flagged for a closer look

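Single libraries far from the others of their group were looked for in 136 groups of values, and 12 were found, where chance gives about 1 in 20 for like and separate values. These groups pool lines and letter sets, and type sums stand beside their own members, so the 12 cannot be weighed against that rate. Library D of WT-AURKA c1 was high for the H1 sum (21.8 RPKM), HIST1H1E (7.57 RPKM), HIST1H2AM (1.26 RPKM) and HIST2H2BB (1.24 RPKM), and library O of the same line was low for HIST1H2AG (0.595 RPKM). Library A of NES-AURKA c2 was high for the H4 sum (18.05 RPKM), HIST1H4H (2.33 RPKM) and HIST2H4A (0.925 RPKM), and library V of that line was low for HIST2H2AC (0.174 RPKM). Library K of NES-Empty was high among control libraries for HIST1H2AG (1.16 RPKM), HIST1H2AH (1.10 RPKM) and HIST2H4A (1.16 RPKM). Libraries D and A are the A to H libraries of their lines and differ from them in AURKA RNA; the part of this was not tested.

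The A to H minus I to Z difference in NLS-AURKA lines differed from that in other lines by -2.35 on the log2 scale for HIST1H1C and by -2.17 for HIST1H2BK, the 2 members for which the difference between groups of lines itself passed the limma test.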

How the results depend on the processing

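One direction reversed: HIST1H3C between NLS-AURKA and control lines was -0.0165 with A to H libraries alone. For single named genes, 899 other values kept direction and side of the threshold, 124 lost and 6 gained a call. With A to H libraries alone, members called fell to 6 (NLS-AURKA against NES-AURKA), 1 (against WT-AURKA) and 11 (against control), 0 between NES-AURKA and WT-AURKA, and 2 and 1 for WT-AURKA and NES-AURKA against control; 1 was called between AURKA and control lines. With I to Z libraries alone NES-AURKA gave 6 against control, and with log2(RPKM + 0.1) 5. WT-AURKA against control gave 1 without a filter, and 3 with upper-quartile scaling or the letter set removed first; NES-AURKA against WT-AURKA gave 1 without a filter. The letter-set difference of NLS-AURKA gave 1 with log2(RPKM + 0.1), no filter, a mean of at least 1 RPKM or upper-quartile scaling. The letter sets gave 9 in AURKA lines alone. The cause was not tested, beyond the fewer libraries in fits of 1 set.

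Leaving out 1 line gave 14 to 20 calls for NLS-AURKA against NES-AURKA, 12 to 17 against WT-AURKA and 14 to 19 against control, 1 to 5 for NES-AURKA against WT-AURKA, 3 to 7 against control (7 without NES-AURKA c2), 0 to 6 for WT-AURKA against control, 0 to 1 between AURKA and control lines (1 without NLS-Empty) and 0 to 4 for the letter-set difference of NLS-AURKA. Leaving out 1 library gave 9 to 11 for both NLS-AURKA clones and 12 to 18 for the letter sets. NES-AURKA against WT-AURKA gave 1 without WT-AURKA c2 and 5 without NES-AURKA c2. Members near 1 RPKM rest on few reads. No paired analysis was possible because the library letters pair no samples across lines.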
